A study of Homo sapiens with 9 samples.

Results

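The genes described here are 53 interferon-stimulated and interferon signalling genes, chosen by name from a list, out of 36753 gene identifiers measured. They comprise the receptors and kinases that carry an interferon signal, the transcription factors behind them, and genes that interferons are known to induce. All 53 had a value in each of 9 RNA sequencing libraries of PANC-1, an established cell line from a human pancreatic carcinoma. The cells were collected 48 hours after transfection in 3 groups of 3 libraries. One group received siSIRT6, a small interfering RNA against SIRT6 (a histone deacetylase that depends on NAD). Another received siKDM5C, directed against KDM5C (a demethylase of histone H3 lysine 4), and the third received a control. No interferon, virus or other stimulus is named in the labels, so the values describe transfected cells of this line without a named stimulus. Whether transfection itself moved these genes was not tested. The sources used here give neither the sequences and number of the siRNAs nor whether replicates were separate cultures, so p-values measure the spread between these libraries, which may be technical.

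Interferons are secreted proteins that cells release on sensing viral nucleic acids. Type I interferons bind the receptor pair IFNAR1 and IFNAR2, which signals through the kinases JAK1 and TYK2. Type II interferon binds IFNGR1 and IFNGR2, which signal through JAK1 and JAK2. In both cases the kinases then activate STAT proteins. STAT2 with IRF9 forms part of a factor that binds the interferon-stimulated response element (ISRE), while IRF1 and other IRF proteins can bind the same element without a receptor signal. Many of these genes have a basal level in unstimulated tumour cells. The cause of that basal level was not tested here.

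The ISRE is the sequence feature that many of these genes share, and it was searched for because the list was not chosen by sequence. RefSeq promoter windows (GRCh38.p14, 250 bases before to 50 bases after the gene start) were at hand for 42 of the 53 genes. In 35 of the 42, the first 30 bases from the gene start occurred in a GENCODE transcript of the gene, so the start used for the others is less certain. A single window was searched per listed gene, while the share over all promoters counts every window. The ISRE core, GAAANNGAAA on either strand (TTTCNNTTTC when read on the other one), occurred in 24 of the 42, or 57.1%, and in 1255 of all 35116 promoters searched, or 3.57%. The site for STAT dimers, TTCNNNGAA, which reads the same on both strands, occurred in 11 of the 42 (26.2%) against 7.66% of all promoters. A site for NF-kB, searched on both strands as a letter pattern that starts with GGG and ends with CC, occurred in 11 (26.2%) against 11.3%. In 3 of the 42 promoters, matches of different motifs overlapped. The following stretches of 30 bases show the ISRE core in capitals, written along each gene's own strand, for genes with different responses below; the last shows the NF-kB match of IRF1 in capitals instead. IFIT1 and IFIT3 share the core TTTCACTTTC, and GBP1 and GBP3 share the core TTTCAGTTTC.
IFIT1 (chr10:89392497-89392526, plus strand): ctagctttagTTTCACTTTCccctttcggt
IFIT3 (chr10:89327865-89327894, plus strand): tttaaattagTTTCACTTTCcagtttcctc
IFIT5 (chr10:89414513-89414542, plus strand): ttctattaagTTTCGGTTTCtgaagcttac
IFIH1 (chr2:162318686-162318715, minus strand): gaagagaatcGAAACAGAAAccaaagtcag
GBP1 (chr1:89065316-89065345, minus strand): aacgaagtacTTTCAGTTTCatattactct
GBP3 (chr1:89022845-89022874, minus strand): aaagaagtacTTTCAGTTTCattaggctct
IFITM3 (chr11:320876-320905, minus strand): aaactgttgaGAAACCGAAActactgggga
MX1 (chr21:41420559-41420588, plus strand): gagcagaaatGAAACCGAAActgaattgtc
TRIM21 (chr11:4393666-4393695, minus strand): cttctgagcgGAAACTGAAAgtgaaatagg
IRF1 (chr5:132490804-132490833, minus strand): ggccagggctGGGGAATCCCgctaagtgtt
A match is a description of these letters and not a measured binding site, and no match says only that the letters are not in this window.

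The libraries held 18201413 to 26910441 implied reads in genes, siSIRT6 replicate 3 being the deepest. SIRT6 stood at 6.20, 5.17 and 7.17 FPKM (fragments per kilobase, on a scale common to libraries of any depth) in control and at 0.795, 0.509 and 0.487 FPKM after siSIRT6, 9.66% of the control mean. KDM5C stood at 18.0, 18.4 and 18.8 FPKM in control and at 3.65, 3.31 and 3.89 FPKM after siKDM5C. Both targets were thus low in the libraries labelled for them. After the other knockdown, KDM5C kept 96.7% of its control mean (-0.05, adjusted p = 0.513). SIRT6 kept 81.15% after siKDM5C (-0.25, adjusted p = 0.106), a difference that passed without control replicate 2 (adjusted p = 0.0336). The keratins KRT7, KRT8, KRT18 and KRT19, markers of carcinoma epithelium, summed to 1090 to 1141 FPKM in control, 1396 to 1511 after siSIRT6 and 693 to 853 after siKDM5C. Single keratins departed from that sum, since KRT7 fell after siSIRT6 (-0.45, adjusted p = 0.0163) and KRT19 kept 103% of its control mean after siKDM5C. Of 8 leukocyte markers, 6 had values, and their sum was 43.4 to 57.7 FPKM in control, 36.1 to 38.8 after siSIRT6 and 72.3 to 93.3 after siKDM5C. Nearly all of that sum was CD68, a lysosomal protein that epithelial cells also make, at mean levels of 45.3, 35.9 and 80.0 FPKM. CD14, a monocyte receptor, was lower in both knockdowns (-0.55, adjusted p = 2.59e-04, and -0.42, adjusted p = 0.0011), and the defining leukocyte gene PTPRC was at or near 0 in every group. The 3 endothelial markers summed to at most 0.0757 FPKM in any library, and the 4 fibroblast markers to at most 0.409. What part the shift of the keratins has in the results was not tested.

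Differences between groups were tested with limma on log2(FPKM + 1), a scale that understates the change of low genes, over 16135 genes that reached 1 FPKM in 3 or more libraries. Each adjusted p comes from the Benjamini-Hochberg method over those genes, in 1 limma fit of the 9 libraries, two-sided, with a threshold of 0.05. Of the 53 interferon genes, 36 entered the test, and the other 17, at 0 to 1.05 FPKM, are described after them. BST2 and XAF1 reached the minimum in every library of the control group only, MX2 through both knockdown groups but not the control, and IFITM1 through control and siKDM5C but not siSIRT6, so a difference in these 4 was favoured by the filter. In bulk RNA, fewer cells that express a gene and less RNA per cell cannot be told apart.

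After siSIRT6, 20 of the 36 tested interferon genes were lower than in control, or 55.6%, where 26.9% of all 16135 tested genes were lower. Higher levels passed in 2 of the 36, where 23.9% of all tested genes were higher. The median log2 difference of the 36 was -0.32 and that of all tested genes -0.05. After siKDM5C, 26 of the 36 were lower, or 72.2%, against 25.9% of all tested genes, and 1 was higher, against 25.6% of all. The median log2 difference was -0.50 against -0.02 for all genes. These shares cover only the genes above the minimum and describe them. In fits of only the groups compared, 23 of the 36 were lower after siSIRT6 and 24 after siKDM5C. Of all 16135 tested genes, 4936 and 3492 were lower in those fits. Both comparisons use the same 3 control libraries. Side by side, 15 genes were lower in both, 5 were lower after siSIRT6 without passing after siKDM5C, and 10 were lower after siKDM5C without passing after siSIRT6. These classes held 41.7%, 13.9% and 27.8% of the 36, where 15.1%, 10.2% and 9.45% of all tested genes fell in them. MX2 was higher in both, IFIT1 was higher after siSIRT6 and lower after siKDM5C, and IFNGR2, IRF9, TRIM21 and IFI44 passed in neither. These classes held 2.78%, 2.78% and 11.1% of the 36, against 15.8%, 1.33% and 31.6% of all tested genes. The levels fell below 50% of the control mean for 5 genes after siSIRT6 (13.9%, against 5.62% of all tested genes) and for 10 after siKDM5C (27.8%, against 4.90%). The 5 include XAF1, and the 10 include BST2 and XAF1. As BST2 and XAF1 reached the minimum through control only, their falls were favoured by the filter. Both are also among the 15 lower in both knockdowns.

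**Figure D1:**
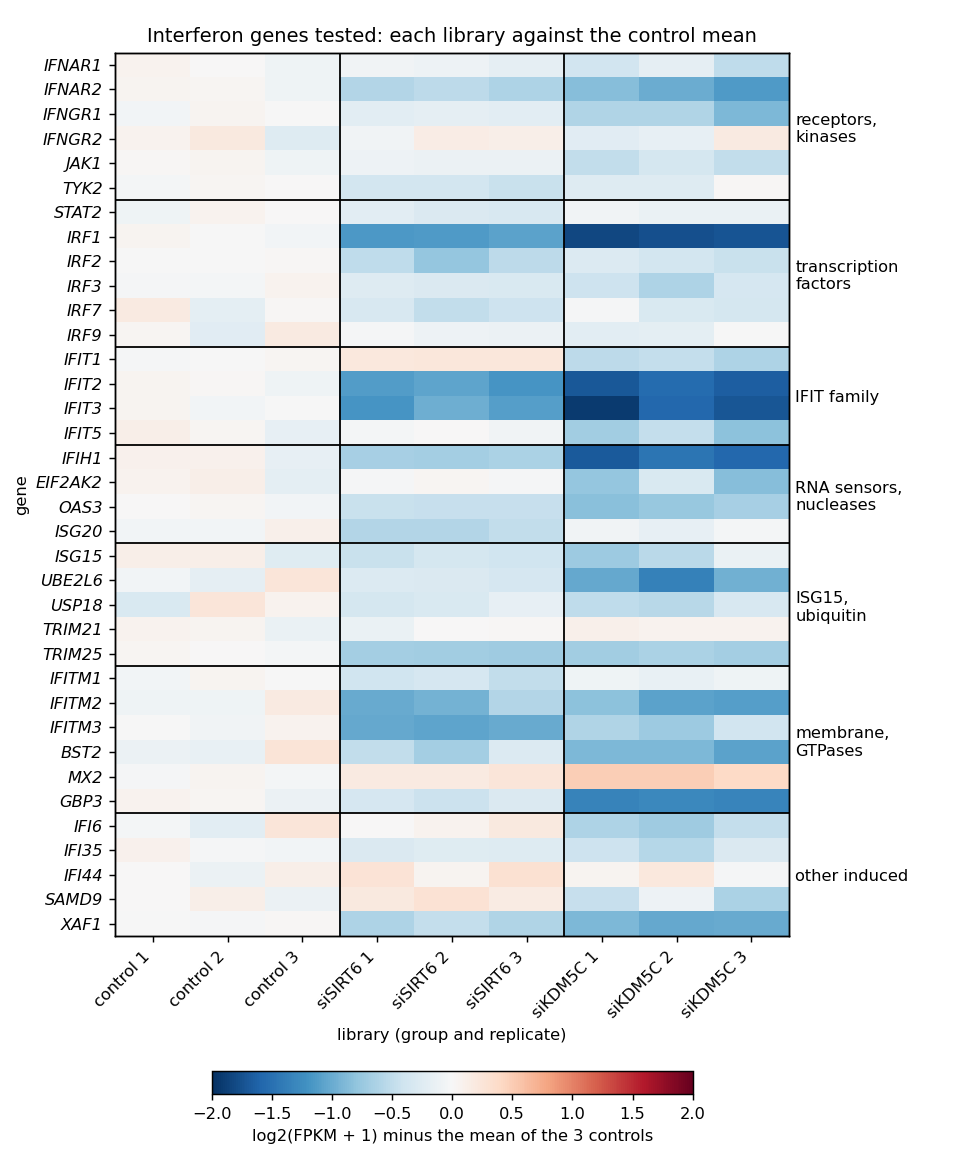
Each row is 1 of the 36 tested interferon genes, ordered by role, and each column 1 library; the colour is log2(FPKM + 1) minus the mean of the 3 control libraries, blue for lower and red for higher. The deepest blue lies in IRF1, IFIT2, IFIT3 and IFIH1 of the 3 siKDM5C libraries, and IFIT1 is pale red after siSIRT6 and blue after siKDM5C.

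Among the receptors, IFNAR2, the ligand-binding partner that recruits JAK1, changed most. It stood at 9.82, 9.73 and 8.83 FPKM in control, at 5.92, 6.27 and 5.82 after siSIRT6 and at 4.76, 4.28 and 3.78 after siKDM5C. The 3 groups did not overlap, siKDM5C being lowest. The log2 difference from control was -0.58 (SE 0.08, adjusted p = 3.36e-04) after siSIRT6 and -0.99 (SE 0.08, adjusted p = 1.73e-05) after siKDM5C. IFNAR1, its partner chain, stood at 10.3 to 11.7 FPKM in control, at 9.64 to 10.4 after siSIRT6 and at 7.47 to 9.66 after siKDM5C. It fell after siKDM5C (-0.35, SE 0.09, adjusted p = 0.00901) and did not pass after siSIRT6 (-0.12, SE 0.09, adjusted p = 0.275). The knockdowns differed by 0.23 (SE 0.09, adjusted p = 0.0620), which missed the threshold. That difference passed in 5 of 18 alternatives, among them the one without siKDM5C replicate 2. IFNAR2 shares 1803 exonic bases with IL10RB-DT on the opposite strand, at mean levels of 6.85, 4.05 and 2.81 FPKM in control, siSIRT6 and siKDM5C, and 2038 bases with AP000295.1 on its own strand. The sources used here do not say on which strand reads were counted, so reads of these overlapping genes cannot be told apart.

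The type II receptor chains differed from each other. IFNGR1, which binds interferon gamma, stood at 9.81, 10.6 and 10.1 FPKM in control, 8.70, 8.84 and 8.67 after siSIRT6 and 6.38, 6.34 and 5.02 after siKDM5C. All 3 siKDM5C libraries lay below all others, and the fall of 0.70 on the log2 scale passed (SE 0.08, adjusted p = 1.51e-04). The siSIRT6 libraries also lay below all controls, with a log2 difference of -0.20 (SE 0.08, adjusted p = 0.0644) that missed the threshold. It passed in 3 of 18 alternatives, among them that of only the groups compared. Another left out siKDM5C replicate 3, a library that enters only the estimate of the spread. The knockdowns differed by 0.50 (SE 0.08, adjusted p = 0.00151). IFNGR2, the signalling chain, overlapped between all groups, at 10.2 to 14.2 FPKM in control, 11.8 to 13.8 after siSIRT6 and 10.4 to 14.1 after siKDM5C.

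JAK1, the kinase that serves both receptor types, stood at 29.7, 30.3 and 27.4 FPKM in control, 27.2, 26.9 and 26.7 after siSIRT6 and 20.5, 22.6 and 20.4 after siKDM5C. Its level fell after siKDM5C (-0.45, SE 0.06, adjusted p = 3.19e-04) and did not pass after siSIRT6, and siSIRT6 and siKDM5C differed from each other by 0.34 (SE 0.06, adjusted p = 0.00226). TYK2, the kinase bound to IFNAR1, stood at 10.2 to 10.8 FPKM in control, 7.44 to 7.94 after siSIRT6 and 8.63 to 10.7 after siKDM5C. It fell after siSIRT6 (-0.39, SE 0.08, adjusted p = 0.00341), where the groups did not overlap. After siKDM5C the log2 difference of -0.16 (SE 0.08, adjusted p = 0.117) did not pass with all libraries, and passed without siKDM5C replicate 3 (lowest adjusted p over the alternatives 0.00394). The difference of TYK2 between the knockdowns (-0.23, SE 0.08, adjusted p = 0.0470) was lost in 12 of 18 alternatives.

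The transcription factors were led by IRF1, an activator of ISRE genes that is itself induced through STAT and NF-kB sites. Its gene lies on the minus strand at chr5:132481609-132490798 (GENCODE release 29, GRCh38). IRF1 stood at 11.7, 11.2 and 10.8 FPKM in control, at 4.48, 4.56 and 4.78 after siSIRT6 and at 2.43, 2.59 and 2.68 after siKDM5C. These 3 groups were far apart, with 41.1% of the control mean left after siSIRT6 and 23.0% after siKDM5C. The log2 differences were -1.12 (SE 0.05, adjusted p = 1.48e-06) and -1.77 (SE 0.05, adjusted p = 1.63e-07), and siSIRT6 stood 0.65 above siKDM5C (SE 0.05, adjusted p = 4.29e-05). IRF1 shares 1716 exonic bases with C5orf56 on the opposite strand, which stood at 6.66 ± 0.534, 2.71 ± 0.0746 and 1.66 ± 0.183 FPKM (SD, n = 3) in control, siSIRT6 and siKDM5C. It also shares 469 with AC116366.3 on that strand, which did not follow IRF1, at 14.2 ± 0.592, 15.1 ± 0.383 and 12.5 ± 2.30 FPKM. How far these genes share reads was not tested. In all, 11 of the 36 tested genes overlap an exon of another gene above 1 FPKM, among them IRF3, IRF9 and IFIT2, and their levels are uncertain to that extent.

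IRF2, a relative of IRF1 that often represses the same element, showed the other order of the knockdowns. It stood at 6.39, 6.35 and 6.51 FPKM in control, 4.19, 3.36 and 4.18 after siSIRT6 and 5.12, 4.74 and 4.42 after siKDM5C. Both groups lay below all controls, with log2 differences of -0.60 (SE 0.08, adjusted p = 3.38e-04) and -0.37 (SE 0.08, adjusted p = 0.00469). The difference between the knockdowns (-0.23, SE 0.08, adjusted p = 0.0433) was lost when any library but siSIRT6 replicate 1 or siKDM5C replicate 3 was left out, with adjusted p-values up to 0.130. IRF3, the factor that sensors of viral RNA activate first, fell by 0.28 (SE 0.07, adjusted p = 0.0122) after siSIRT6 and by 0.46 (SE 0.07, adjusted p = 0.00106) after siKDM5C. Its control libraries stood at 14.2 to 15.3 FPKM, above the 11.6 to 12.1 of siSIRT6 and the 9.16 to 11.4 of siKDM5C.

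STAT2 and IRF9, the partners of the ISRE-binding factor, moved little. STAT2 fell after siSIRT6, from 7.76, 8.79 and 8.39 to 7.01, 6.63 and 6.48 FPKM (-0.27, SE 0.06, adjusted p = 0.00420). After siKDM5C it stood at 7.49 to 7.90 FPKM, overlapping the controls (-0.11, adjusted p = 0.142). The difference between the knockdowns was at the threshold (-0.16, SE 0.06, adjusted p = 0.0497) and was lost in 14 of 18 alternatives, with adjusted p-values up to 0.155; among the libraries, only without control replicate 1 did it still pass. IRF9 stood at 2.58 to 3.71 FPKM in control, 2.82 to 3.09 after siSIRT6 and 2.59 to 3.13 after siKDM5C, and passed in no comparison of all libraries, although it was lower after siKDM5C without control replicate 2 (adjusted p = 0.0489). IRF7, the factor that amplifies type I interferon production, stood at 2.13 to 3.05 FPKM in control and fell to 1.55 to 1.87 after siSIRT6 (-0.41, SE 0.12, adjusted p = 0.0184). That call was lost without control replicate 1, control replicate 3 or siSIRT6 replicate 2, with adjusted p up to 0.0653. After siKDM5C it stood at 1.81 to 2.53 FPKM (-0.23, SE 0.12, adjusted p = 0.140), which passed without siKDM5C replicate 1, and the knockdowns did not differ past the threshold (-0.18, SE 0.12, adjusted p = 0.248).

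The 4 IFIT genes encode proteins that bind foreign RNA ends, and they lie within one cluster on chromosome 10, from IFIT2 at 89283694 to the end of IFIT5 at 89421001. All 4 were lower after siKDM5C, but siSIRT6 split them. IFIT2, which restricts viral translation, stood at 22.8, 22.4 and 20.5 FPKM in control, at 9.55, 10.04 and 9.05 after siSIRT6 and at 6.07, 6.84 and 6.31 after siKDM5C. The 3 groups were fully apart, at 43.6% and 29.3% of the control mean, and the log2 differences were -1.12 (SE 0.06, adjusted p = 3.99e-06) and -1.63 (SE 0.06, adjusted p = 6.35e-07). IFIT3, which stabilises IFIT1 in a complex, followed the same order. Its libraries stood at 9.65, 8.93 and 9.23 FPKM in control, 3.54, 4.22 and 3.76 after siSIRT6 and 1.73, 2.46 and 2.15 after siKDM5C. That left 41.4% (-1.09, SE 0.09, adjusted p = 3.08e-05) and 22.8% (-1.73, SE 0.09, adjusted p = 2.52e-06) of the control mean.

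IFIT1, which recognises viral RNA caps that lack a methyl group, went the other way after siSIRT6. It stood at 6.92, 7.03 and 7.32 FPKM in control, at 8.39, 8.44 and 8.47 after siSIRT6 and at 4.63, 4.84 and 4.27 after siKDM5C. Every siSIRT6 library lay above every control, and every siKDM5C library below, at 119% and 64.6% of the control mean. The rise after siSIRT6 was small (0.22, SE 0.05, adjusted p = 0.00721) and passed in each alternative tried, and the fall after siKDM5C was larger (-0.54, SE 0.05, adjusted p = 6.13e-05). Between the knockdowns the log2 difference was 0.76 (SE 0.05, adjusted p = 1.94e-05). IFIT5, a further RNA-binding member, kept 97.5% of the control mean after siSIRT6, with overlapping libraries (-0.03, SE 0.10, adjusted p = 0.840). It stood at 5.29 to 6.67 FPKM in control and at 3.36, 4.08 and 3.00 FPKM after siKDM5C (-0.66, SE 0.10, adjusted p = 7.84e-04), 0.63 below siSIRT6 (SE 0.10, adjusted p = 0.00150). IFIT1 and IFIT3 carry the same ISRE core in the stretches printed above. As members of this family are similar in sequence, reads shared between them could blur their separate levels.

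**Figure D2:**
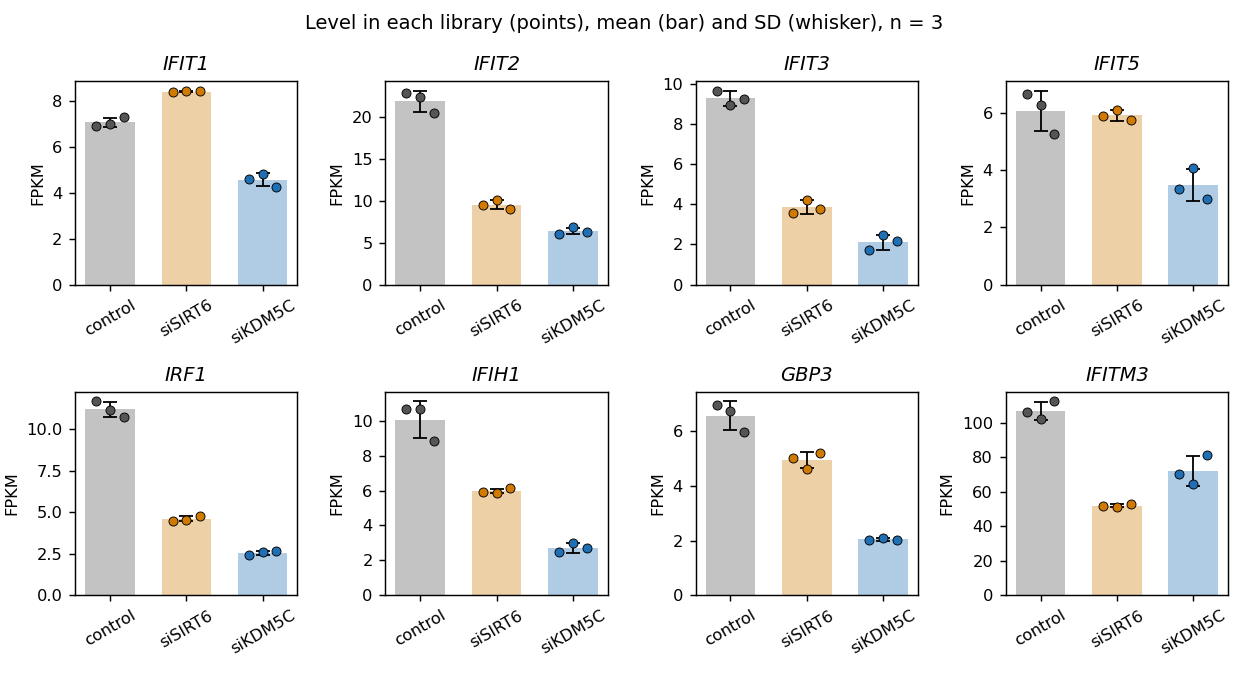
Levels in FPKM (y axis from 0) of the 4 IFIT genes, IRF1, IFIH1, GBP3 and IFITM3 in control, siSIRT6 and siKDM5C; points are libraries, bars means and whiskers SD over 3 libraries. In IFIT1 the siSIRT6 points lie above the control points, and the siKDM5C bar is the lowest in every gene but IFITM3, where siSIRT6 is.

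Of 8 RNA sensors and nucleases, 4 were tested. IFIH1 encodes MDA5, a helicase that detects long double-stranded RNA in the cytoplasm. It stood at 10.7, 10.7 and 8.84 FPKM in control, at 5.94, 5.89 and 6.12 after siSIRT6 and at 2.46, 3.01 and 2.69 after siKDM5C. The groups did not overlap and 59.5% and 27.1% of the control mean remained. The log2 differences were -0.66 (SE 0.08, adjusted p = 2.56e-04) and -1.57 (SE 0.08, adjusted p = 2.22e-06), with 0.91 between the knockdowns (SE 0.08, adjusted p = 7.45e-05). OAS3, which makes the messenger that activates RNase L, fell from 4.54, 4.63 and 4.30 FPKM to 3.04, 3.01 and 3.01 after siSIRT6 (-0.45, SE 0.06, adjusted p = 2.86e-04). It stood at 2.09, 2.27 and 2.45 FPKM after siKDM5C (-0.75, SE 0.06, adjusted p = 1.73e-05).

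EIF2AK2 and ISG20 each responded to a single knockdown at the threshold used. EIF2AK2, the kinase PKR that stops translation on binding double-stranded RNA, stood at 17.4, 18.0 and 14.3 FPKM in control, 16.2, 16.9 and 16.3 after siSIRT6 and 9.23, 13.1 and 8.70 after siKDM5C. It fell after siKDM5C (-0.64, SE 0.14, adjusted p = 0.00500) and the interval after siSIRT6 lay around 0 (-0.32 to 0.32). The knockdowns differed by 0.64 (SE 0.14, adjusted p = 0.00699). The pseudogene AC007899.1, which shares 401 exonic bases on the opposite strand, moved alongside, at 11.2, 11.3 and 6.67 FPKM on average. ISG20, an RNA exonuclease, showed the reverse. Its libraries stood at 5.57, 5.59 and 6.35 FPKM in control, 3.55, 3.57 and 3.87 after siSIRT6 and 5.51, 5.11 and 5.62 after siKDM5C. The siSIRT6 libraries lay below all 6 others, by 0.55 against control (SE 0.06, adjusted p = 1.76e-04), and siSIRT6 differed from siKDM5C by -0.46 (SE 0.06, adjusted p = 7.39e-04).

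ISG15 is a ubiquitin-like protein, UBE2L6 the enzyme that passes it on, HERC5 its ligase in human cells and USP18 the protease that removes it. ISG15 was second only to IFITM3 in mean control level among the 53 genes per length, at 65.8, 66.0 and 51.3 FPKM. It stood at 44.1, 47.1 and 46.0 FPKM after siSIRT6, below all controls, and at 36.2, 41.2 and 55.5 after siKDM5C, where 1 library lay within the control range. Neither comparison was firm. The log2 difference was -0.40 (SE 0.15, adjusted p = 0.0562) after siSIRT6. It passed in 7 of 18 alternatives, among them only the groups compared and without control replicate 3, siKDM5C replicate 1 or siKDM5C replicate 3. After siKDM5C it was -0.47 (SE 0.15, adjusted p = 0.0315), which was lost without control replicate 1 or 2 or siKDM5C replicate 1 or 2, with adjusted p from 0.00359 to 0.0972 over the alternatives.

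UBE2L6 stood at 9.38, 8.47 and 11.7 FPKM in control, 7.86, 7.76 and 7.57 after siSIRT6 and 4.29, 3.22 and 4.54 after siKDM5C. The 40.9% of the control mean left after siKDM5C passed (-1.11, SE 0.13, adjusted p = 1.47e-04). The siSIRT6 difference (-0.30, SE 0.13, adjusted p = 0.0754) missed the threshold in the main fit. It passed in 6 of 18 alternatives, among them only the groups compared and without control replicate 2 or siKDM5C replicate 2. The knockdowns differed by 0.81 (SE 0.13, adjusted p = 0.00134). USP18, which also dampens the type I receptor, stood at 1.89 to 3.22 FPKM in control and at 1.43 to 1.85 after siKDM5C (-0.46, SE 0.14, adjusted p = 0.0201), a call lost without control replicate 2 or 3 or siKDM5C replicate 1 or 2 (adjusted p up to 0.0658). After siSIRT6 it stood at 1.81 to 2.20 FPKM and passed only without control replicate 1 among the libraries left out. The difference between the knockdowns did not pass (0.19, SE 0.14, adjusted p = 0.293).

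The ubiquitin ligases TRIM25 and TRIM21 differed from each other. TRIM25, which activates the RNA sensor RIG-I, stood at 24.8, 24.4 and 23.4 FPKM in control, 14.7, 14.5 and 14.3 after siSIRT6 and 14.6, 15.3 and 14.8 after siKDM5C. Both knockdowns lay far below control, at 59.9% and 61.5% of its mean (-0.70, SE 0.04, adjusted p = 6.17e-06, and -0.67, SE 0.04, adjusted p = 8.53e-06). The difference between the knockdowns was -0.04, with an interval from -0.14 to 0.07. TRIM25 shares 538 exonic bases with AC015912.1 on the opposite strand, at 113 ± 4.63, 66.4 ± 1.61 and 64.7 ± 6.46 FPKM (SD, n = 3). TRIM21, an intracellular antibody receptor, stood at 13.9 to 16.1 FPKM in control, 13.8 to 15.4 after siSIRT6 and 16.0 to 16.4 after siKDM5C and passed in neither comparison, although the ISRE core occurs in its promoter window.

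IFITM1, IFITM2 and IFITM3 are membrane proteins that block the entry of viruses, and their genes lie together on chromosome 11. IFITM3 had the highest mean control level of the 53 genes. It stood at 106, 102 and 112 FPKM in control, at 51.8, 51.1 and 52.9 after siSIRT6 and at 70.0, 64.4 and 81.5 after siKDM5C. Here siSIRT6 was lowest, with 48.6% of the control mean (-1.03, SE 0.08, adjusted p = 2.28e-05) against 67.3% after siKDM5C (-0.57, SE 0.08, adjusted p = 5.88e-04). The knockdowns did not overlap and differed by -0.46 (SE 0.08, adjusted p = 0.00295). IFITM2 fell in both, from 8.53, 8.45 and 10.4 FPKM to 4.01, 4.23 and 5.72 after siSIRT6 (-0.85, SE 0.13, adjusted p = 8.48e-04) and 4.73, 3.80 and 3.71 after siKDM5C (-0.99, SE 0.13, adjusted p = 3.44e-04). IFITM1 was low, at 1.15 to 1.32 FPKM in control, and fell after siSIRT6 to 0.580 to 0.777 FPKM (-0.41, SE 0.07, adjusted p = 0.002). After siKDM5C it stood at 1.01 to 1.11 FPKM (-0.11, adjusted p = 0.253), above siSIRT6 (-0.30 for siSIRT6 minus siKDM5C, SE 0.07, adjusted p = 0.0123). IFITM1 and IFITM2 share 351 annotated exonic bases, so their reads are uncertain.

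GBP3 is a guanylate-binding GTPase of the interferon gamma response. It stood at 6.98, 6.76 and 5.98 FPKM in control, at 5.01, 4.62 and 5.21 after siSIRT6 and at 2.01, 2.10 and 2.03 after siKDM5C. The groups were apart, with 75.3% of the control mean left after siSIRT6 and 31.1% after siKDM5C (-0.35, SE 0.07, adjusted p = 0.00250, and -1.31, SE 0.07, adjusted p = 1.80e-06). The difference of 0.97 between the knockdowns (SE 0.07, adjusted p = 1.89e-05) was the largest among the 36 tested interferon genes. BST2, or tetherin, which holds budding virions at the cell surface, stood at 1.40, 1.33 and 2.09 FPKM in control, 0.831, 0.611 and 1.15 after siSIRT6 and 0.381, 0.393 and 0.234 after siKDM5C. It fell after siKDM5C (-0.96, SE 0.14, adjusted p = 6.59e-04). Its siSIRT6 call (-0.48, SE 0.14, adjusted p = 0.02) was lost without control replicate 3, siSIRT6 replicate 1 or siSIRT6 replicate 2, with adjusted p up to 0.0707.

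MX2, a dynamin-like GTPase that restricts retroviruses, was the only tested interferon gene that was higher in both. It stood at 0.864, 0.961 and 0.850 FPKM in control, 1.15, 1.14 and 1.24 after siSIRT6 and 1.65, 1.67 and 1.51 after siKDM5C. The 3 groups did not overlap, at 132% and 180% of the control mean. The rise after siKDM5C passed in each alternative tried (0.46, SE 0.06, adjusted p = 4.66e-04). That after siSIRT6 (0.20, SE 0.06, adjusted p = 0.0284) was lost without control replicate 1 or 3 and with any 1 of the siSIRT6 libraries left out, with adjusted p up to 0.0947.

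Among the other interferon-induced genes, XAF1, a promoter of cell death, had the smallest share left. It stood at 1.12, 1.09 and 1.16 FPKM in control, 0.392, 0.532 and 0.405 after siSIRT6 and 0.143, 0.0490 and 0.0585 after siKDM5C, or 39.4% and 7.41% of the control mean. Both falls passed (-0.56, SE 0.08, adjusted p = 5.75e-04, and -0.97, SE 0.08, adjusted p = 2.68e-05), but the gene entered the test through its control values and shares 2535 exonic bases with PRAL on the opposite strand. IFI35, a partner of NMI, fell from 11.2 to 12.5 FPKM in control to 7.54 to 9.44 FPKM after siKDM5C (-0.42, SE 0.08, adjusted p = 0.00195). Its siSIRT6 libraries stood at 9.40 to 9.68 FPKM (-0.27, SE 0.08, adjusted p = 0.0184), a call lost without control replicate 1 or without siSIRT6 replicate 1 or 3 (adjusted p up to 0.0679).

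IFI6 and SAMD9 were lower after siKDM5C and not after siSIRT6. IFI6, a protein that protects cells from flavivirus replication, stood at 11.9, 10.5 and 14.7 FPKM in control, 12.4, 12.9 and 14.1 after siSIRT6 and 7.67, 7.10 and 8.59 after siKDM5C. The siKDM5C libraries lay below all others (-0.60, SE 0.11, adjusted p = 0.00261), and the knockdowns differed by 0.69 (SE 0.11, adjusted p = 0.00188). SAMD9, an antiviral translation inhibitor, stood at 4.14 to 5.06 FPKM in control, 5.25 to 5.86 after siSIRT6 and 2.63 to 4.23 after siKDM5C. The siSIRT6 libraries lay above all controls without passing (0.22, SE 0.13, adjusted p = 0.185), although they passed without siKDM5C replicate 2. The siKDM5C call (-0.40, SE 0.13, adjusted p = 0.0282) was lost without control replicate 1 or 2 or siKDM5C replicate 1 or 3 (adjusted p up to 0.0905), while the knockdowns differed by 0.61 (SE 0.13, adjusted p = 0.00538). IFI44 overlapped between control, at 1.21 to 1.60 FPKM, and both siSIRT6, at 1.499 to 1.99, and siKDM5C, at 1.37 to 1.78.

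**Figure D3:**
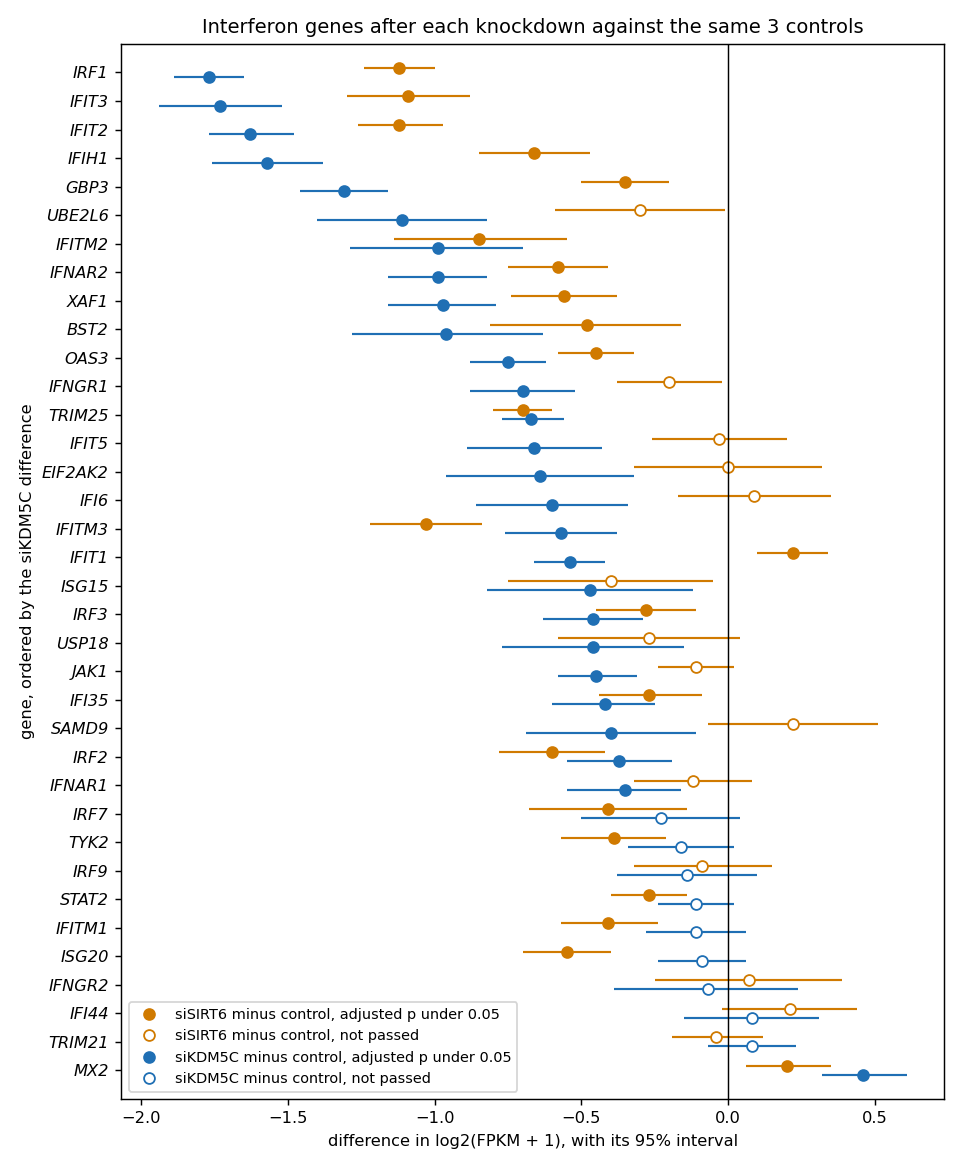
Log2 difference from control for the 36 tested interferon genes after siSIRT6 (orange) and siKDM5C (blue), with 95% intervals from the limma fit, ordered by the siKDM5C value; filled points passed an adjusted p of 0.05. Most points lie left of 0, siKDM5C reaches -1.77 at IRF1, and MX2 at the bottom lies right of 0 in both.

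Set against each other, the knockdowns differed in 24 of the 36 tested genes. Levels were higher after siSIRT6 than after siKDM5C in 17, or 47.2%, where 18.6% of all tested genes were, and lower in 7, or 19.4%, where 21.3% of all tested genes were. The median log2 difference was 0.21, against -0.02 over all tested genes. The 17 included all 4 tested IFIT genes, the sensors IFIH1, EIF2AK2 and OAS3, the receptor genes IFNAR2 and IFNGR1, and the kinase gene JAK1. The 7 were TYK2, STAT2, IRF2, ISG20, IFITM1, IFITM3 and MX2. Of these, ISG20, IFITM1, IFITM3 and MX2 passed in each alternative tried, while the call of TYK2 was lost when any library but siKDM5C replicate 1 or 2 was left out, with adjusted p up to 0.140. Among the higher ones, BST2 (0.47, SE 0.14, adjusted p = 0.0276) was lost without siSIRT6 replicate 1 or 3 or siKDM5C replicate 1 or 3. For 12 genes the difference did not pass, and for TRIM25 and ISG15 the intervals were -0.14 to 0.07 and -0.28 to 0.42.

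**Figure D4:**
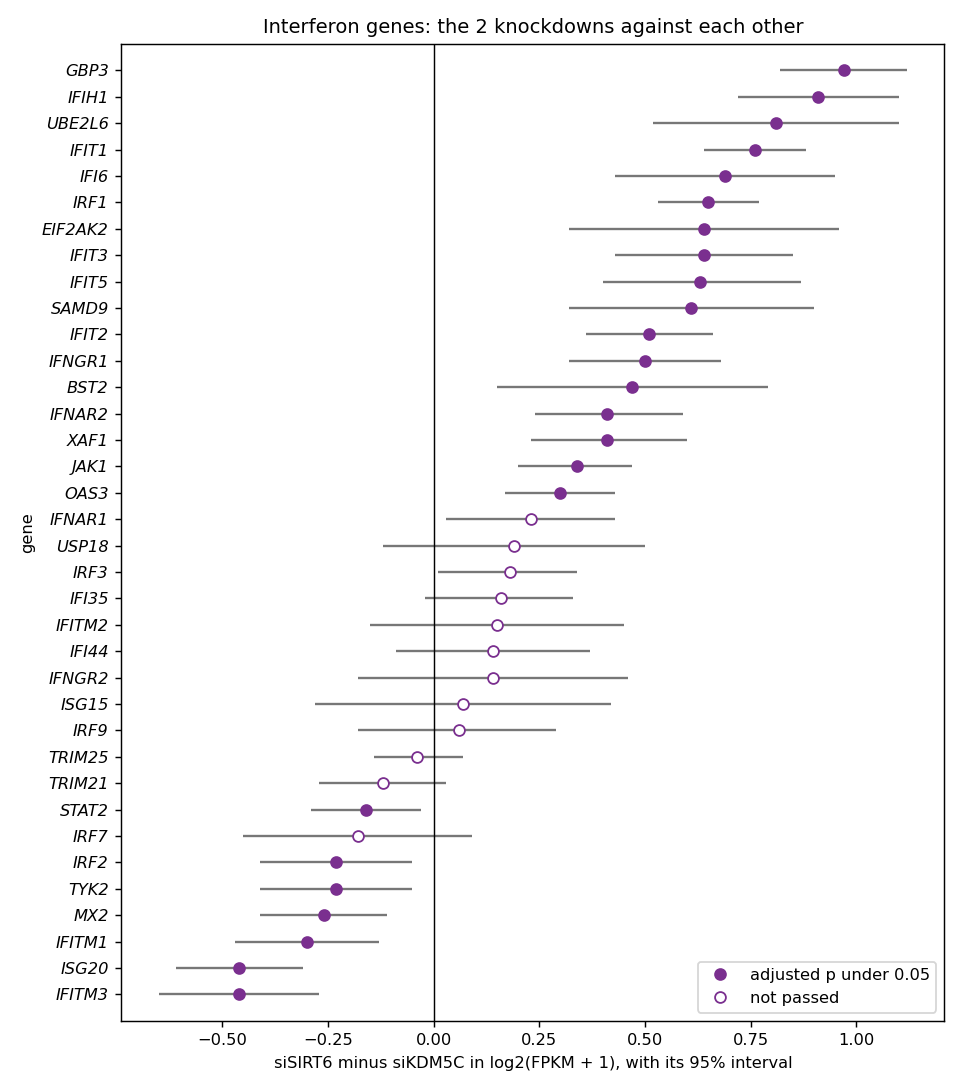
Log2 difference between siSIRT6 and siKDM5C for the 36 tested interferon genes with 95% intervals, ordered by value; filled points passed an adjusted p of 0.05. GBP3 and IFIH1 lead on the side where siSIRT6 is higher, and ISG20 and IFITM3 on the side where siKDM5C is higher, both at -0.46.

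Grouped by the ISRE core, the 28 tested genes that have a promoter window gave the following counts. Of the 16 with a match, 8 were lower and 1 higher after siSIRT6, and 12 were lower and 0 higher after siKDM5C. Of all 253 tested genes whose promoter window holds the core, these 16 included, 35.2% were lower and 22.5% higher after siSIRT6, and 37.2% and 20.2% after siKDM5C. The 12 without a match held 6 lower and 0 higher genes after siSIRT6, and 8 lower and 0 higher after siKDM5C. Of all 9547 tested genes with a window and no match, 28.2% were lower and 27% higher after siSIRT6, and 27.8% and 28.3% after siKDM5C. Median log2 differences were -0.37 and -0.59 with a match and -0.27 and -0.43 without. Between the knockdowns, the median was 0.54 with a match, where 10 were higher and 3 lower after siSIRT6, and 0.19 without, where 5 were higher and 2 lower. Of all tested genes with a match, 25.7% were higher and 19.0% lower in that comparison, and without a match 21.6% and 23.0%. No test of these small groups was made.

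The 17 genes below the minimum held few reads, which were recovered as whole numbers from the FPKM steps and are given as such, for libraries of unequal depth. They were fitted in an alternative added after their low levels were seen, with limma-voom on the recovered reads over 25616 genes with at least 10 reads in the 9 libraries. Of the 16 that could be fitted, 2 were lower and 3 higher after siSIRT6, where 21.4% of all genes in that fit were lower and 18.0% higher. After siKDM5C, 8 were lower and 0 higher, where 19.6% and 19.7% of all genes were. The 10 that were higher after siSIRT6 than after siKDM5C compare with 14.6% of all genes, and the 1 that was lower with 17.1%. The one gene not fitted, CXCL10, a chemokine that draws T cells, had at most 1 read in any library, and 0 in all 3 siKDM5C libraries, a count that allows up to 3 reads per library.

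**Figure D5:**
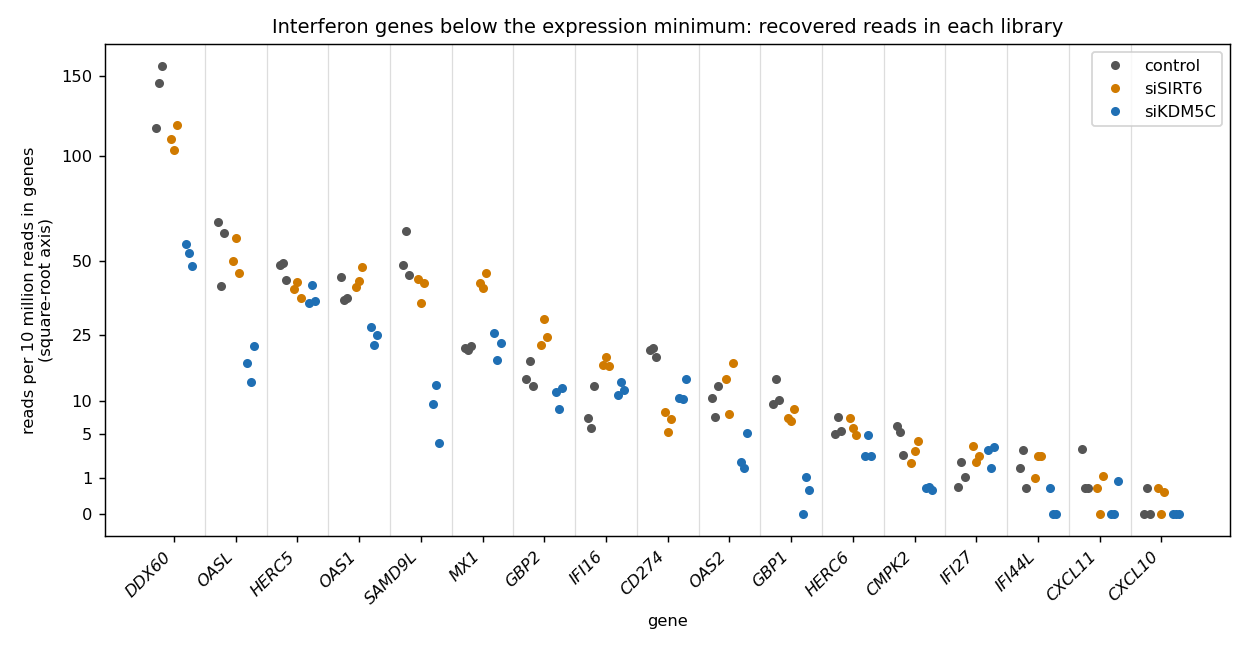
Recovered reads at an equal depth (y axis, square-root scale) for the 17 interferon genes below the minimum, with 1 point per library, grey for control, orange for siSIRT6 and blue for siKDM5C. The blue points lie below the others for DDX60, OASL, SAMD9L, OAS2 and GBP1, and the orange points lie above the others for MX1.

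The RNA sensors and synthetases among these low genes stood lowest after siKDM5C. DDX60, a helicase that assists RNA sensing, had 212, 276 and 292 reads in control, 216, 200 and 318 after siSIRT6 and 109, 98 and 112 after siKDM5C. It fell by 1.40 on the log2 scale of reads after siKDM5C (SE 0.14, adjusted p = 1.78e-06) and by 0.32 after siSIRT6 (SE 0.12, adjusted p = 0.0453). OASL, a relative of the synthetases that enhances RIG-I signalling, had 121, 77 and 115 reads in control, 98, 115 and 122 after siSIRT6 and 34, 25 and 51 after siKDM5C. The siKDM5C libraries again lay below all others (-1.62, adjusted p = 1.12e-04). OAS1 had 68 to 80, 79 to 128 and 41 to 58 reads in the 3 groups and fell after siKDM5C (-0.63, adjusted p = 0.00864). OAS2 had 14 to 24, 15 to 48 and 3 to 12 reads (-1.77 after siKDM5C, adjusted p = 0.0134).

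SAMD9L, the neighbour and paralog of SAMD9, had 88, 119 and 83 reads in control, 85, 67 and 112 after siSIRT6 and 18, 24 and 9 after siKDM5C. It fell by 2.74 (adjusted p = 1.09e-05) after siKDM5C and did not pass after siSIRT6 (-0.36, adjusted p = 0.181). GBP1, a close relative of GBP3 with the same ISRE core, had 17, 27 and 19 reads in control, 14, 13 and 23 after siSIRT6 and 0, 2 and 1 after siKDM5C (adjusted p = 8.41e-05). CMPK2, a mitochondrial nucleotide kinase, had 11, 10 and 5 reads in control, 4, 6 and 11 after siSIRT6 and 1 in each siKDM5C library (adjusted p = 0.00334). With so few reads the size of those falls is not given.

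The GTPase MX1, the nuclear sensor IFI16 and GBP2 were higher after siSIRT6. MX1, which blocks influenza and related viruses, had 39, 40 and 41 reads in control, 82, 77 and 122 after siSIRT6 and 49, 34 and 53 after siKDM5C. Every siSIRT6 library exceeded every other (0.98 above control, adjusted p = 3.40e-04), and siKDM5C did not differ past the threshold from control (0.04, adjusted p = 0.881). IFI16 had 13, 11 and 24 reads in control and 34, 37 and 46 after siSIRT6 (1.10, adjusted p = 0.00539), with 21, 25 and 28 after siKDM5C (0.56, adjusted p = 0.151). GBP2 had 26, 35 and 24 reads in control and 44, 57 and 66 after siSIRT6 (0.73, adjusted p = 0.0142), with 22, 16 and 29 after siKDM5C. CD274, which encodes the checkpoint ligand PD-L1, had 38, 41 and 36 reads in control, 16, 10 and 19 after siSIRT6 and 20, 19 and 33 after siKDM5C. It fell by 1.58 after siSIRT6 (adjusted p = 1.79e-04) and by 0.80 after siKDM5C (adjusted p = 0.0110), so that siSIRT6 was the lower of the knockdowns (-0.78, adjusted p = 0.0443).

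The remaining low genes gave no call against control. HERC5, the ISG15 ligase, had 80 to 94 reads in control, 78 to 98 after siSIRT6 and 66 to 82 after siKDM5C. HERC6 had 5 to 14 reads in any library, IFI27 1 to 8, IFI44L 0 to 7 and the chemokine CXCL11 0 to 6. IFI44L, with 2, 5 and 7 reads after siSIRT6 and 1, 0 and 0 after siKDM5C, differed between the knockdowns (adjusted p = 0.0277).

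The rest of the interferon pathway was followed through 80 further genes, of which 67 had values and 50 were tested. After siSIRT6, 20 of the 50 were lower and 10 higher, or 40% and 20%, where 26.9% of all tested genes were lower and 23.9% higher, with a median log2 difference of -0.13. After siKDM5C, 30 were lower and 12 higher, or 60% and 24%, where 25.9% and 25.6% of all tested genes were, with a median of -0.27. The shares of higher genes were thus near those of all genes. The interferon genes themselves were low. IFNB1 was at 0 FPKM in the control and siKDM5C libraries and at 0.121, 0 and 0.0443 after siSIRT6. The type III gene IFNL1 stood at 1.56, 1.29 and 2.14 FPKM in control, 2.43, 1.80 and 2.49 after siSIRT6 and 0.676, 0.837 and 1.33 after siKDM5C. IFNL1 reached 1 FPKM in every control and siSIRT6 library but not in every siKDM5C library, so its lower siKDM5C level was favoured by the filter. It differed between the knockdowns by 0.74 (SE 0.16, adjusted p = 0.00667), while its siKDM5C call against control (-0.45, adjusted p = 0.0424) was lost in 10 of 17 alternatives, including those without control replicate 1 or 3, siSIRT6 replicate 1 or 3 or siKDM5C replicate 1 or 2 (adjusted p up to 0.131). The other tested ligand gene, the type I gene IFNE, had the opposite order, at 1.38, 1.42 and 0.727 FPKM in control, 0.827, 0.597 and 0.403 after siSIRT6 and 1.10, 1.76 and 1.17 after siKDM5C. Only its siKDM5C libraries all reached 1 FPKM. IFNE differed between the knockdowns by -0.54 (SE 0.17, adjusted p = 0.0329), a call lost without siSIRT6 replicate 2 or 3 or siKDM5C replicate 2 or 3 (adjusted p up to 0.108), and passed in neither comparison with control.

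The regulators in that list did not move in one direction. SOCS1, the feedback inhibitor of the JAK kinases, fell from a mean of 5.73 FPKM to 1.37 after siSIRT6 (-1.5, adjusted p = 3.72e-06) and 1.43 after siKDM5C (-1.47, adjusted p = 3.87e-06). PTPN11, the phosphatase SHP2, rose from 12.5 to 28.9 and 27.6 FPKM (1.15, adjusted p = 6.33e-06, and 1.08, adjusted p = 9.49e-06). In the induction pathway, the adaptor TRAF3 rose from 4.68 to 9.55 and 9.06 FPKM, and the kinase TBK1 fell from 4.75 to 2.94 and 2.97 FPKM. MAVS, the mitochondrial adaptor below IFIH1, rose from 10.6 to 17.2 FPKM after siSIRT6 and to 13.4 after siKDM5C, with 0.34 between them (adjusted p = 0.00159). JAK2, a kinase of the type II receptor, fell from 1.39 to 0.759 and 0.682 FPKM, but it reached the minimum through the control libraries only, so that its fall was favoured by the filter.

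Of 32 further interferon-induced genes tested, 20 were lower and 8 higher after siKDM5C, or 62.5% and 25%, against 25.9% and 25.6% of all tested genes. After siSIRT6, 11 were lower and 6 higher, or 34.4% and 18.8%, nearer to the 26.9% and 23.9% of all tested genes. PARP14, an ADP-ribosyltransferase, went from 14.9 to 10.1 and 5.31 FPKM (-0.51, adjusted p = 2.59e-04, and -1.33, adjusted p = 1.45e-06). DTX3L, a ubiquitin ligase, stood at 14.3, 12.2 and 6.40 FPKM and differed between the knockdowns by 0.83 (adjusted p = 1.14e-04). TAP1, the peptide transporter of class I antigen presentation, stood at 20.6, 18.0 and 10.4 FPKM, and PSMB9, an immunoproteasome subunit, at 8.60, 4.04 and 2.17 FPKM. OGFR, an opioid growth factor receptor, rose instead, from 3.77 to 14.4 FPKM after siSIRT6 and 14.3 after siKDM5C (1.69, adjusted p = 1.02e-06, and 1.68, adjusted p = 9.93e-07).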

How the data were processed

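Total RNA of 9 libraries was sequenced from a stranded mRNA library kit, per the labels' protocols. The authors deposited 1 FPKM value per gene identifier and library, without pooling replicates. That unit was read from the values, since low values are whole multiples of a step set by gene length and depth. The submitters' processing notes name Trimmomatic, HISAT2, Cufflinks, HTSeq and hg38, without versions. Neither annotation nor counted strand is given in the sources used here. Symbols came from a gene name table holding 36659 of 36753 identifiers, and coordinates from GENCODE release 29.

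The 53 genes, their roles, the 80 further pathway genes and the tests were chosen with earlier results of these data known, so their counts are descriptions. The main test was limma 3.58.1 (R 4.3.3) on log2(FPKM + 1), over genes that reached 1 FPKM in 3 or more libraries (a term per group, trended variance, 6 residual degrees of freedom). The code was tested on simulated data with the same spread in every group, so that check does not cover the unequal spread of these groups. Whole reads came out for 95.25% of genes within 0.01 of a read. At 0 reads, a gene of 1 kilobase could hold up to 0.111 to 0.165 FPKM (3 reads, counting error only).

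Named genes were all listed genes, with full statistics for at most 6 per role and comparison by absolute difference among those past the threshold, plus at most 4 further pathway genes per role and comparison. Alternatives changed the pseudocount, filter, scaling, libraries in the fit, replicate block, variance trend and unit. Replicates differed by more than sampling noise and none were identical. The spread was unequal between groups. Between replicates, the chi-square per degree of freedom (larger where replicates differ more) was 1.92 to 3.04 in siSIRT6. It was 2.43 to 10.75 in control and 11.55 to 16.43 in siKDM5C. The main fit used a single estimate of the spread for all groups.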

Additional observations from a re-analysis of the deposited data

How the results depend on the processing

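The alternatives were a pseudocount of 0.1, no filter, a minimum of 5 FPKM, median-of-ratios scaling, fits of only the groups compared, a replicate block, no variance trend, recovered reads with limma-voom, each library left out, and the added read fit with a lower minimum. Of the tested interferon genes, 18 of 22 calls held in every alternative after siSIRT6, 24 of 27 after siKDM5C and 20 of 24 between the knockdowns. The exceptions are named in the report, and no called gene changed direction. Without a filter, MX2 was also lost after siSIRT6, ISG15, USP18 and SAMD9 after siKDM5C, and TYK2, STAT2, IRF2 and BST2 between the knockdowns. Fits of only the groups compared also lost ISG15 and SAMD9 after siKDM5C, and gave SAMD9 a call after siSIRT6. The replicate block lost MX2 after siSIRT6 and ISG15 after siKDM5C, and gave IRF7 a call after siKDM5C. IRF2 between the knockdowns was also lost with median-of-ratios scaling, with only the groups compared and in the added read fit. At the 5 FPKM minimum, which tests fewer genes, 5367 genes passed after siSIRT6 in place of 8194 and 5418 after siKDM5C in place of 8308. With only the groups compared, 9180 genes passed after siSIRT6 and 7065 after siKDM5C. Lower interferon genes then numbered 23 after siSIRT6, in place of 20, and 24 after siKDM5C, in place of 26. Of all 16135 tested genes, 4936 and 3492 were lower in those fits, in place of 4333 and 4174. All genes higher after siSIRT6 numbered 3861 of 16135 in the reported fit, 3972 of 36753 with no filter and 2594 of 9446 at 5 FPKM. In the added read fit, 4609 of all 25616 genes were higher after siSIRT6. Interferon genes higher after siSIRT6 numbered 2 in the reported fit, 4 with no filter, 1 at 5 FPKM, 1 to 3 with a library left out and 5 in the added read fit. Their median was -0.38 with a pseudocount of 0.1, -0.14 with no filter, -0.30 at 5 FPKM, -0.29 with median-of-ratios scaling, -0.39 on recovered reads and -0.34 to -0.31 with a library left out. After siKDM5C, 0 were higher at 5 FPKM, where MX2 is not tested, and the median was -0.60 with a pseudocount of 0.1, -0.40 with no filter, -0.57 at 5 FPKM, -0.61 on recovered reads, -0.66 in the added read fit and -0.56 to -0.50 with a library left out. Between the knockdowns, 28 of 52 were higher in the added read fit, which tests more of the genes, where 3732 of all 25616 genes were. With no filter, with median-of-ratios scaling and with only the groups compared, 4 interferon genes were lower. Of all genes, 3451 of 36753, 3155 of 16135 and 3064 of 16135 were lower in those fits. With a library left out, 4 to 5 interferon genes were lower between the knockdowns. That median was 0.27 with a pseudocount of 0.1, 0.15 with no filter, 0.34 at 5 FPKM, 0.28 on recovered reads, 0.56 in the added read fit and 0.21 to 0.26 with a library left out. Apart from fewer or more genes tested, the cause of these shifts was not tested. Replicate numbers are not stated to pair the libraries. Deviations from the group mean correlated at -0.229 to 0.252 between same-numbered libraries of different groups. Between differently numbered ones they correlated at -0.353 to 0.426. These correlations cannot decide whether cultures were paired. With the number as a replicate block, 1 interferon gene was higher and 21 lower after siSIRT6, 1 and 26 after siKDM5C, and 18 and 5 between the knockdowns. Of all 16135 tested genes, 3794 and 4336, 4077 and 4168, and 3019 and 3367 were higher and lower, in the same order. For the 17 genes below the minimum, low reads limit the precision of each value.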
